A study of Mus musculus with 8 samples.

Results

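The transcripts described here encode the heterogeneous nuclear ribonucleoproteins (hnRNPs), the serine- and arginine-rich (SR) splicing factors, the SF3A, SF3B and U2AF proteins, and the proteins of the small nuclear ribonucleoproteins (snRNPs). They were chosen by gene symbol, as every mouse gene whose symbol starts with Hnrnp, Srsf, Sf3a, Sf3b, U2af or Snrp, with Snrpn left out. The arrays named 53 such genes through 88 probes, out of 20660 named genes and 55681 probes in all. All 53 were well above background on all 8 arrays, and all 53 were among the 13539 genes tested. Srsf11, Hnrnpa1l2-ps2 and 5 pseudogenes of these names had no matched probe and were not analysed here.

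Before an RNA leaves the nucleus its introns are cut out by the spliceosome, a machine assembled anew on each intron from snRNPs. Each of the major snRNPs except U6 carries a ring of Sm proteins around its RNA. U1 reads the start of the intron, U2AF reads its end, and the U2 snRNP with SF3A and SF3B settles on the branch point. SR proteins and hnRNPs bind the RNA outside these sites and bias which exons are kept, SR proteins mostly in favour of an exon and many hnRNPs against it. Several splicing factor genes are known targets of MYC-family proteins in tumours.

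Cells were dissociated from the superior mesenteric ganglion (SMG), a sympathetic ganglion, of 3-week-old mice of the strain background 129+Ter/SvJcl that were hemizygous for TH-MYCN (TH-MYCN+/-). In this transgene the tyrosine hydroxylase promoter drives human MYCN in sympathetic cells. The cells of each ganglion were divided between RA (-) medium, without retinoic acid (RA), and RA (+) medium, and the primary spheres that formed were collected after 8 days and measured on 1-colour arrays. There were 4 RA (-) and 4 RA (+) sphere samples from 4 biological replicates, so each replicate number joins an RA (-) sample and an RA (+) sample. All samples of both groups carried the transgene. The comparison asks how these neuroblast spheres differ when RA is left out.

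A level below is the log2 of a probe's processed intensity minus the 75th percentile of its array, and a change is the RA (-) level minus the RA (+) level, estimated with limma with the replicate as a block. A gene is called at an adjusted p (Benjamini-Hochberg over all tested genes) under 0.05. The share of spots well above background was 48.5% to 55.0% on RA (-) arrays and 52.7% to 55.3% on RA (+) arrays, no spot was saturated, and the number of arrays limits the precision. Dhrs3, which is induced by RA, had a change of −5.00 and the RA receptor gene Rarb one of −1.77, in the direction of the labels. The mouse Mycn transcript had a change of −0.18 (adjusted p = 0.198 by limma), or −0.32 (0.0463) after quantile normalization and −0.29 (0.0211) after normexp, where it passed, and its probe need not detect the human transgene. Of the sympathoadrenal markers, Th, which makes the first catecholamine precursor, averaged 7.83 ± 0.10 in RA (-) spheres and 4.24 ± 0.31 in RA (+) spheres (SD, n = 4 each), Dbh, a later enzyme of that pathway, 6.09 ± 0.27 in RA (-) spheres and 7.62 ± 0.09 in RA (+) spheres, and the transcription factor gene Hand2 4.37 ± 0.14 in RA (-) spheres and 4.75 ± 0.11 in RA (+) spheres. All 8 arrays showed these 3 well above background. Of the same list of 10 genes, Th, Gata2, Isl1 and Ddc were called higher, with changes of 3.59, 2.11, 2.00 and 0.48. Dbh and Hand2 were called lower, with −1.53 and −0.39, and 4 were not called. In these bulk samples, fewer cells of a type and less RNA per cell cannot be told apart.

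Nearly the whole set was higher without RA. Of the 53 genes, 48 were called higher in RA (-) spheres, where 36.1% of all tested genes were, and 1 was called lower, where 28.2% of all tested genes were. Together 49 of the 53 were called, against 64.3% of all tested genes. The remaining 4 genes, Sf3b2, Sf3b4, Sf3a2 and Hnrnpul2, were not called. The median change was 0.70, a 1.63-fold difference, against a median of 0.07 over all tested genes. By pair, the median of the 53 changes was 0.72, 0.74, 0.80 and 0.64 in replicates 1 to 4.

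Most of these differences were moderate. An increase of at least 1.5-fold was called for 38 of the 53 genes (18.5% of all tested genes) and one of at least 2-fold for 11 (7.52% of all tested genes). Only Srsf12 was at least 1.5-fold lower (18.1% of all tested genes). All RA (-) arrays lay above all RA (+) arrays for 47 of the 53 genes, against 29.5% of all tested genes, and below them for 1, against 23.8%. A total of 48 of the 53 were higher in all 4 pairs, against 40.8% of all tested genes. The count at 1.5-fold depends on the scaling. With the 75th percentile of probes detected on all arrays it was 28, where 14.5% of all genes reached it. It was 21 after quantile normalization and 19 after normexp background correction with quantile normalization, where 14.4% and 10.2% of all genes reached it.

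Markers of dividing cells moved with the set. All 10 that were listed (Mki67, Top2a, Cdk1, Ccnb1, Ccna2, Birc5, Pcna, Mcm2, Mcm5 and Rrm2) were called higher, with a median change of 1.94. Their summed level, in multiples of the array's 75th percentile, was 405 to 632 on RA (-) arrays and 116 to 181 on RA (+) arrays, and their part in the increase of the splicing factor genes was not tested. The lists of other cell types had fewer tested genes. Of the markers of Schwann and satellite glia 5 were tested and 2 of these were lower, with a summed level of 12.3 to 15.8 on RA (-) arrays and 21.3 to 22.8 on RA (+) arrays. Of 8 immune markers 4 were tested and 3 were lower. The sums, of 13.8 to 16.0 and 18.1 to 23.0, rest mostly on Itgam, with a change of −0.51, while Aif1 and Adgre1 were well above background on 0 of 4 RA (-) and 4 of 4 RA (+) arrays, so only a bound is known without RA. Fibroblast markers (4 of 7 tested, 1 higher and 2 lower) summed to 3.18 to 5.65 on RA (-) arrays and 1.84 to 2.84 on RA (+) arrays. That higher sum rests on Col1a2, with a change of 1.03, against −0.74 for Col3a1 and a bound for Dcn, which was well above background on 0 of 4 RA (-) arrays. Endothelial markers (3 of 6 tested, 1 lower) summed to 8.12 to 9.59 and 8.15 to 10.1, and adrenal cortex ones (3 of 6 tested, 1 higher) to 0.627 to 0.768 and 0.534 to 0.682. The higher adrenal cortex gene, Star, with a change of 0.73, was well above background on only 2 of 4 arrays in each medium. The defining markers Erbb3, Pdgfra, Lum, Ptprc, Cd14, Tyrobp, Cdh5, Tek, Emcn, Cyp11a1, Cyp11b1 and Hsd3b1 were at or near background on all arrays, and the part of these cells in the increases was not tested.

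**Figure D1:**
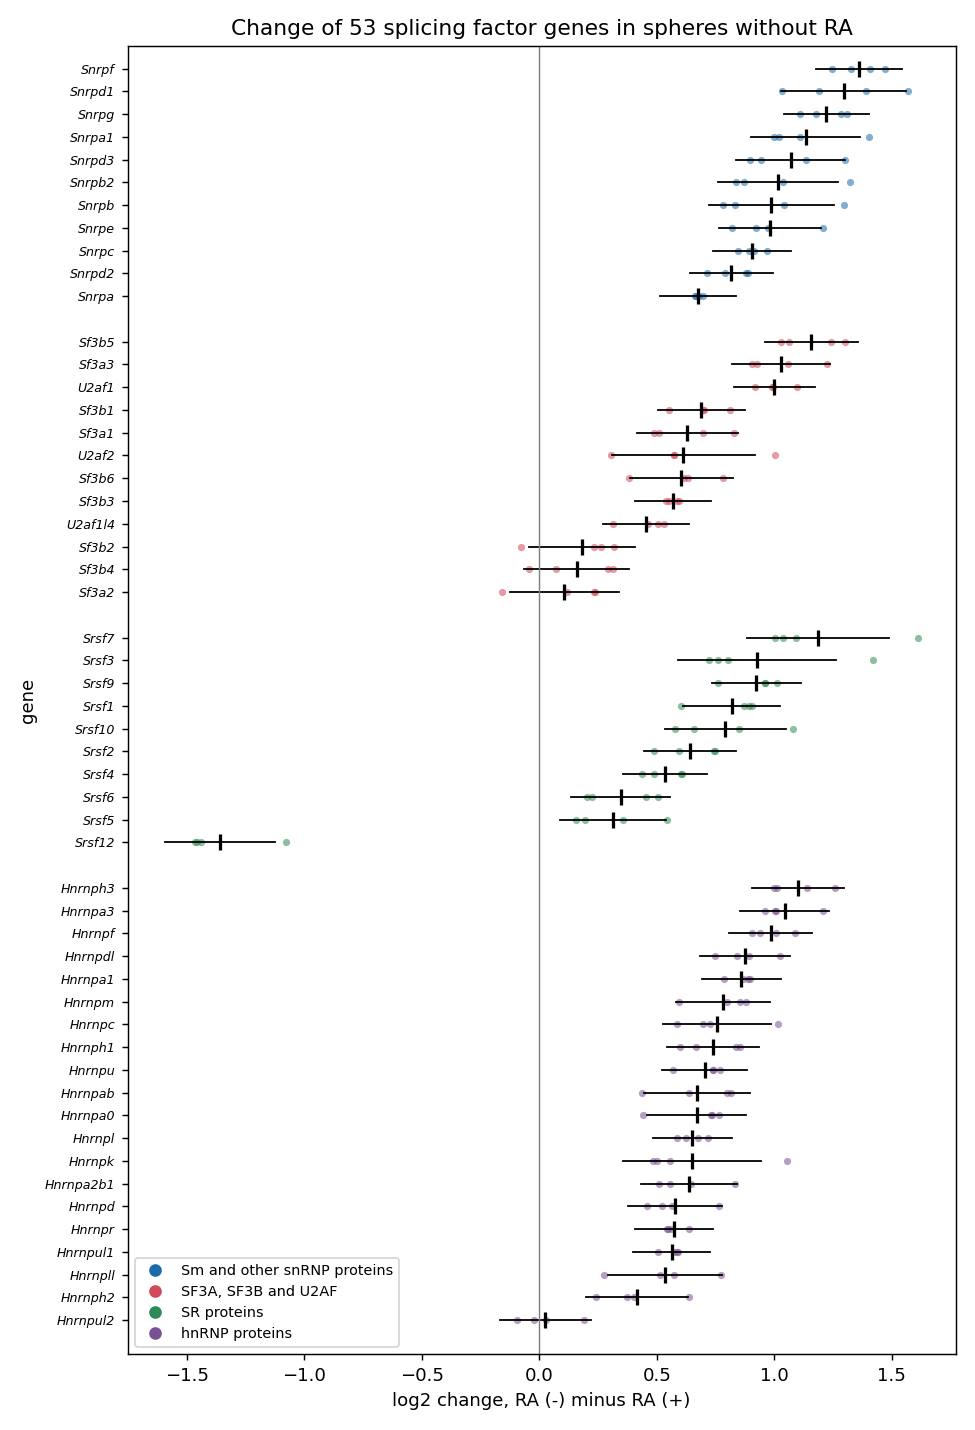
Change of each of the 53 genes, RA (-) minus RA (+), on the log2 scale. Dots are the 4 pairs, vertical ticks the estimate, and lines its 95% interval, with genes grouped by role and sorted by size. All snRNP genes lie right of 0, from 0.68 for Snrpa to 1.36 for Snrpf, and Srsf12 alone lies far to the left at −1.36.

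**Figure D2:**
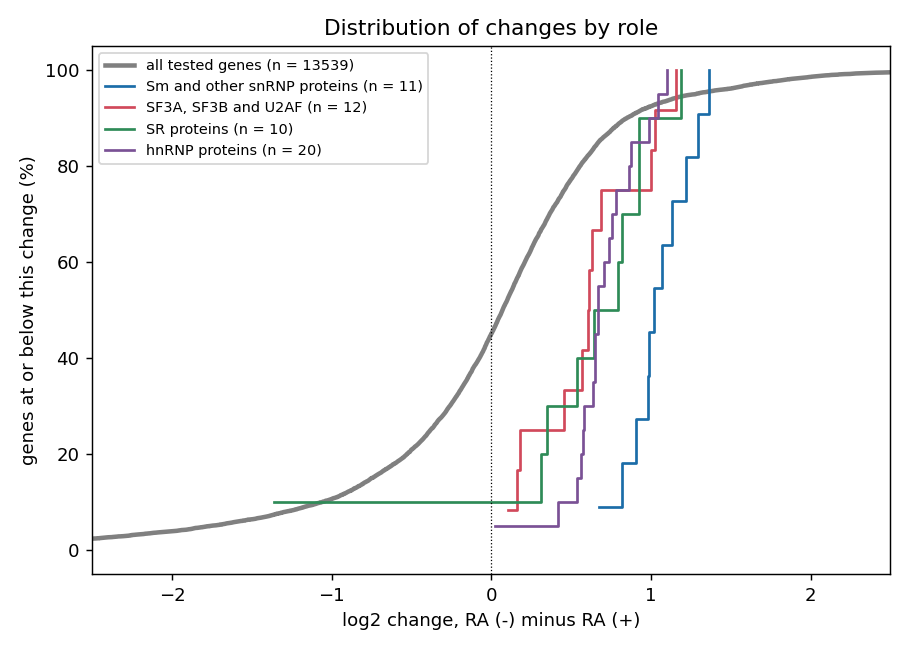
Share of genes at or below each log2 change, RA (-) minus RA (+), for the 4 role groups and for all 13539 tested genes. The snRNP curve stands furthest to the right, with a median of 1.02 against 0.07 for all genes.

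The promoter sequences of a few of these genes are shown because the genes moved together across roles. They are those of the largest snRNP increase, 2 more increases and an hnRNP increase whose windows hold a searched motif, and the single decrease. They are the 250 bases upstream of the RefSeq start on GRCm38.p6, read on the gene's own strand, with CCGGAAG (the core bound by ETS-family factors) or CACGTG (the E-box bound by MYC and other factors) in capitals where present on either strand. The windows are Snrpf, chr10:93589659-93589908 on the minus strand; Snrpg, chr6:86371290-86371539 on the plus strand; Srsf7, chr17:80207306-80207555 on the minus strand. Hnrnpa3 is at chr2:75659009-75659258 on the plus strand, and Srsf12 at chr4:33209022-33209271 on the plus strand.
Snrpf: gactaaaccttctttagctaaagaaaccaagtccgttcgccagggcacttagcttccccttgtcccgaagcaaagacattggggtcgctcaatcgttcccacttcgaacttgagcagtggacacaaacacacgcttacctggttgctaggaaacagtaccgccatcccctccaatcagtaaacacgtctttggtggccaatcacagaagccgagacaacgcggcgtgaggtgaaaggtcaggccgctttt
Snrpg: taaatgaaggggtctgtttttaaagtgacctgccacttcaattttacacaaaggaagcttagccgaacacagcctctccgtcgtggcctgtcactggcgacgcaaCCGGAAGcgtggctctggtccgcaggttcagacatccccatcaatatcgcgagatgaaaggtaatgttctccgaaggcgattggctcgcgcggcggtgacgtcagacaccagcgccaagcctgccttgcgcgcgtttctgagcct
Srsf7: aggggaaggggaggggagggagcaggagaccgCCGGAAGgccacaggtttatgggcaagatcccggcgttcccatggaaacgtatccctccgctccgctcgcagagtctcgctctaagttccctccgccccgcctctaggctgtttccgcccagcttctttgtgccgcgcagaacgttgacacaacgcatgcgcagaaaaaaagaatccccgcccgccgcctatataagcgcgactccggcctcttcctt
Hnrnpa3: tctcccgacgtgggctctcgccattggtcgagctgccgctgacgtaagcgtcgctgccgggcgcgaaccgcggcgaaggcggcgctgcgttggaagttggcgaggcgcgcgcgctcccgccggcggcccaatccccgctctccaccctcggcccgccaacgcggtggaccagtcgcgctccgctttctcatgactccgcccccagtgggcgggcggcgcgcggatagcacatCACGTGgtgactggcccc
Srsf12: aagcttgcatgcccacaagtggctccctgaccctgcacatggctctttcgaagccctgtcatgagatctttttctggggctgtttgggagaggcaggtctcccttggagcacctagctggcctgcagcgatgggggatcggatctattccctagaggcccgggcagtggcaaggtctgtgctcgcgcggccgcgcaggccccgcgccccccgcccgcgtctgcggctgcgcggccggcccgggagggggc

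The Snrpf and Srsf12 windows hold neither motif, the Snrpg and Srsf7 windows hold CCGGAAG, and the Hnrnpa3 window holds CACGTG. The window of Hnrnph3, the hnRNP gene with the largest increase, is not shown and holds neither motif. Over the 46 of 53 genes whose promoters were used, 60 windows of these 250 bases were searched on both strands. CACGTG was in 8.33% of them, against 6.02% of all 32851 promoter windows and 8.15% of the 13765 windows of tested genes. CCGGAAG was in 28.3%, in 17 windows of 14 genes, against 6.91% of all windows and 12.4% of those of tested genes. The windows with CCGGAAG include those of Sf3a2 and Sf3b2, which were not called. Direct repeats of the retinoid receptor element AGGTCA, spaced by 5 or by 2 bases, were in 0 of the 60 windows. They were in 3 of all windows each and in 0% of those of tested genes. Exact repeats are so rare that their absence cannot set these genes apart, and variants of AGGTCA were not searched. CACGTG and CCGGAAG cannot overlap, and a match describes these letters alone.

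The snRNP proteins were the group with the largest median change. All 11 were called higher, where 36.1% of all tested genes were, and the median was 1.02. An increase of at least 2-fold was called for 6 of the 11, against 7.52% of all tested genes. The 7 Sm ring proteins had a median of 1.07, from 0.82 for Snrpd2 to 1.36 for Snrpf. The pair of U2 proteins, Snrpa1 and Snrpb2, had changes of 1.13 and 1.02, and the pair of U1 proteins, Snrpc and Snrpa, changes of 0.90 and 0.68.

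Snrpf, which encodes the F protein of the Sm ring, had levels of 5.84, 5.91, 6.13 and 5.88 in RA (-) replicates 1 to 4 and 4.43, 4.58, 4.66 and 4.63 in RA (+) replicates 1 to 4. The lowest RA (-) array lay more than a doubling above the highest RA (+) array. Its change of 1.36 (SE 0.07, limma adjusted p = 9.758e-05) was the largest increase of the 53 genes, and 95.5% of all tested genes had a lower change. Snrpd1, another ring protein and the partner of Snrpd2 in its assembly, stood at 6.55, 6.91, 7.33 and 7.02 without RA and at 5.52, 5.52, 5.76 and 5.84 with RA. Here too the groups were well apart, with replicate 1 lowest without RA, and the change was 1.29 (SE 0.11, adjusted p = 0.000279).

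For Snrpg, the ring protein that sits beside Snrpe, RA (-) arrays read 7.61, 8.06, 8.37 and 8.22 and RA (+) arrays 6.50, 6.75, 7.09 and 7.04. Replicate 1 was lowest in both media, so the difference within pairs varied less than the levels did, and the change was 1.22 (SE 0.07, adjusted p = 0.000118). Snrpa1, which binds the U2 RNA together with Snrpb2, had 4.92, 5.24, 5.36 and 5.12 without RA against 3.92, 4.13, 3.95 and 4.10 with RA. The groups did not overlap, and the change was 1.13 (SE 0.09, adjusted p = 0.000282).

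The other 7 snRNP genes rose by 1.07 (Snrpd3), 1.02 (Snrpb2), 0.99 (Snrpb, the ring protein with B and B' isoforms), 0.98 (Snrpe), 0.90 (Snrpc), 0.82 (Snrpd2) and 0.68 (Snrpa, which binds a stem loop of U1 RNA). Within this group RA (-) replicate 1 was the lowest RA (-) array for 10 of 11 genes and RA (+) replicate 1 the lowest RA (+) array for 9 of 11. The share of all tested genes with the same lowest array was not computed. The median difference was 0.91 in pair 1, 0.88 in pair 2, 1.28 in pair 3 and 1.02 in pair 4. Every gene of the group was higher without RA in every pair, as were 40.8% of all tested genes.

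The paralogue left out by the naming rule went the other way. Snrpn, an imprinted gene whose SmN protein takes the place of SmB in neurons, had levels of 2.72, 2.73, 2.84 and 2.78 in RA (-) spheres and 3.36, 3.71, 3.44 and 3.39 in RA (+) spheres. The groups did not overlap and the change was −0.71 (SE 0.09, limma adjusted p = 0.0013), while Snrpb had a change of 0.99. With spike-in scaling the change of Snrpn was −0.59 and did not pass.

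**Figure D3:**
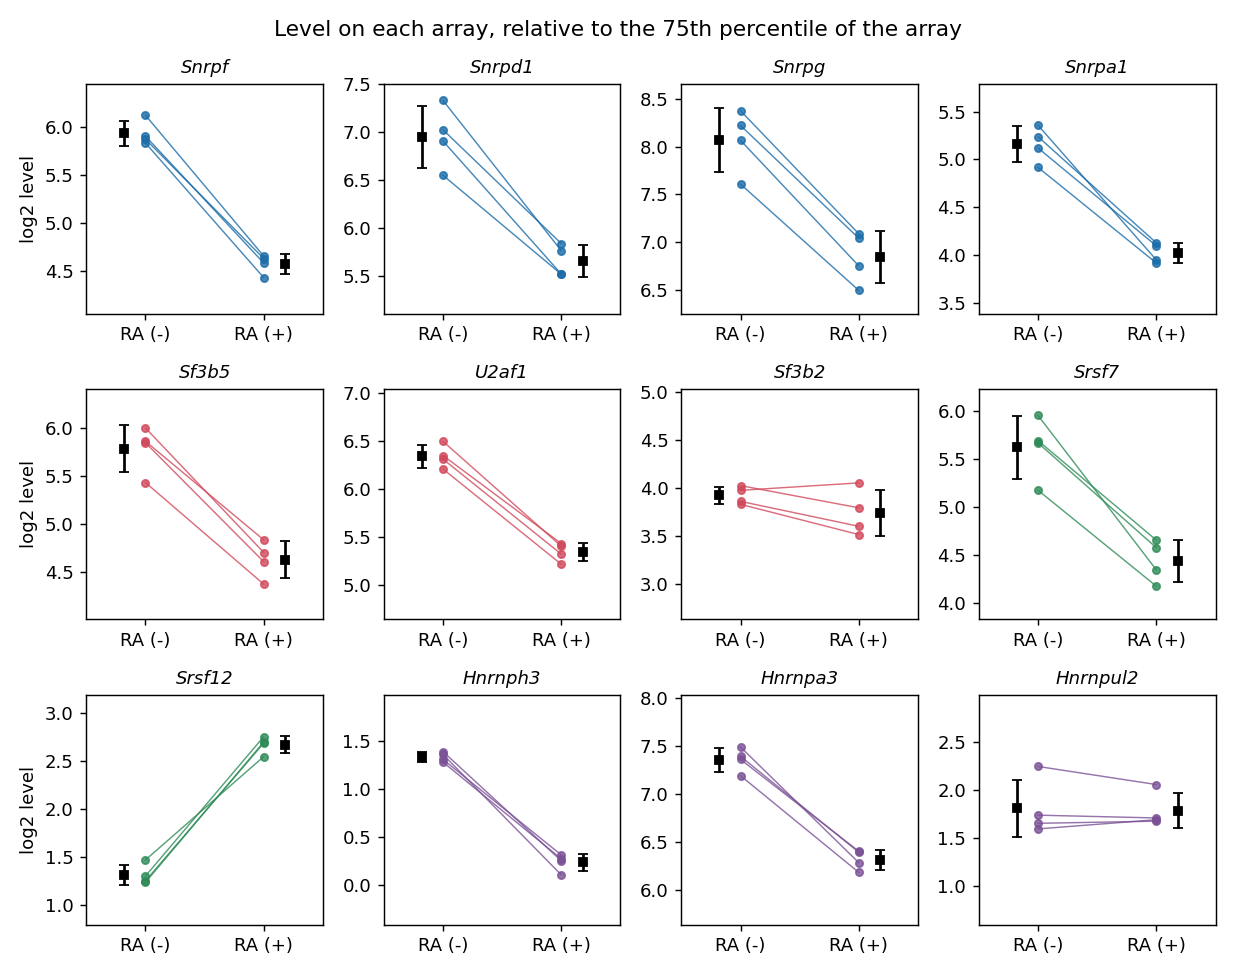
Log2 level of 12 genes on each array, relative to the array's 75th percentile, RA (-) on the left and RA (+) on the right of each panel, with lines joining arrays of one replicate number. Squares and bars are the mean and SD of 4 arrays. Snrpf lies at 5.84 to 6.13 without RA and 4.43 to 4.66 with RA, Srsf12 at 1.23 to 1.47 and 2.54 to 2.75, and the values of Sf3b2 and Hnrnpul2 overlap.

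Among the SF3A, SF3B and U2AF proteins, 9 of 12 genes were called higher, 3 were not called and none was lower. Of all tested genes, 36.1% were called higher and 28.2% lower. The median change of the 12 was 0.61. Subunits of one complex were split: SF3A held both a change of 1.03 and one of 0.11, and SF3B both 1.16 and 0.16.

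Sf3b5, a small subunit of SF3B, had 5.44, 5.85, 6.0 and 5.87 without RA and 4.37, 4.61, 4.71 and 4.84 with RA. The groups lay apart with replicate 1 lowest in both, and the change was 1.16 (SE 0.08, limma adjusted p = 0.000172). Sf3a3, a subunit of SF3A, read 5.40, 5.89, 5.98 and 5.89 on RA (-) arrays and 4.50, 4.96, 4.76 and 4.83 on RA (+) arrays. Its RA (-) replicate 1 stood below the other RA (-) arrays but above all RA (+) arrays, and the change was 1.03 (SE 0.08, adjusted p = 0.000268).

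U2af1, the subunit that contacts the last bases of the intron, had 6.21, 6.31, 6.50 and 6.35 without RA against 5.22, 5.32, 5.40 and 5.43 with RA. The groups did not overlap, and the change was 1.00 (SE 0.07, adjusted p = 0.000173). Sf3b1, the large SF3B subunit that clamps the branch point, was a dimmer signal at 0.83, 0.73, 0.72 and 0.55 without RA and 0.13, −0.08, 0.02 and −0.0003 with RA. These groups were apart as well, with a change of 0.69 (SE 0.08, adjusted p = 0.00069).

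Called increases were also found for Sf3a1 (0.63), Sf3b6 (0.60, a branch point contact), Sf3b3 (0.57) and U2af1l4 (0.45, a paralogue of U2af1). U2af2, which binds the polypyrimidine tract as the partner of U2af1, rose by 0.61 (SE 0.12, limma adjusted p = 0.00674) and was the only called gene of the 53 whose groups overlapped. It read 1.27, 1.32, 0.68 and 1.23 without RA and 0.70, 0.32, 0.37 and 0.66 with RA, so RA (-) replicate 3 fell among the RA (+) arrays.

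The uncalled genes of this group were Sf3b2, with a change of 0.18 (95% interval −0.04 to 0.41), Sf3b4, with 0.16 (−0.07 to 0.38), and Sf3a2, with 0.11 (−0.13 to 0.34). Sf3b2 and Sf3b4 are binding partners within SF3B, and Sf3a2 is a subunit of SF3A. The upper end of each interval lies below 1.5-fold. Sf3b4 read 4.39, 4.01, 3.83 and 3.90 without RA against 4.10, 3.70, 3.87 and 3.83 with RA, and its other tested probe gave 0.03. For Sf3b4 and Sf3a2 the direction depends on the scaling: their changes were −0.02 and −0.03 after quantile normalization.

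In the SR protein group, 9 of 10 genes were called higher and 1, Srsf12, was called lower, with a median of 0.72. The shares of all tested genes were 36.1% higher and 28.2% lower. Srsf7, which also takes part in mRNA export, had 5.18, 5.67, 5.96 and 5.69 without RA and 4.17, 4.58, 4.35 and 4.66 with RA. No array of one medium fell among those of the other, pair 3 differed most, and the change was 1.19 (SE 0.12, limma adjusted p = 0.000569). Srsf3, the smallest SR protein and like Srsf7 an export adaptor, stood at 4.72, 5.16, 5.39 and 5.17 in RA (-) spheres and 4.00, 4.36, 3.97 and 4.41 in RA (+) spheres. Pair 3 again differed most, and the change was 0.93 (SE 0.14, adjusted p = 0.00204).

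Srsf9 had 4.05, 3.78, 3.67 and 3.76 without RA against 3.03, 2.82, 2.91 and 2.80 with RA, a change of 0.92 (SE 0.08, adjusted p = 0.00028). Srsf1, the SR protein first described as a splicing factor and known as a proto-oncogene, read 4.20, 4.14, 3.99 and 3.99 without RA and 3.29, 3.27, 3.10 and 3.39 with RA, a change of 0.82 (SE 0.08, adjusted p = 0.000541). In both genes the media were fully separated, and replicate 1 was the highest rather than the lowest RA (-) array.

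Srsf10, Srsf2, Srsf4, Srsf6 and Srsf5 followed with changes of 0.79, 0.64, 0.53, 0.35 and 0.31. The increase of Srsf5 (adjusted p = 0.026) was the weakest call of the 53 genes and did not pass under quantile, normexp, spike-in or detected-probe scaling, with no filter on dim probes, or without replicate 2, 3 or 4. That of Srsf6 did not pass after quantile normalization, with spike-in scaling or without replicate 2, when its change was 0.31.

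Srsf12 stood alone in the other direction. It encodes an SR-related protein whose human counterpart can counteract other SR proteins in splicing extracts. Its levels were 1.23, 1.25, 1.47 and 1.30 in RA (-) spheres and 2.70, 2.69, 2.54 and 2.75 in RA (+) spheres. The lowest RA (+) array was more than a doubling above the highest RA (-) array, and Srsf12 was lower without RA in all 4 pairs. The change was −1.36 (SE 0.09, limma adjusted p = 0.000168), a 2.57-fold difference, and 7.42% of all tested genes had a lower change. It was −1.45 to −1.24 under the scalings that were run.

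The hnRNP group, the most numerous, had 19 of 20 genes called higher, where 36.1% of all tested genes were. Its median change was 0.67, against 0.07 over all tested genes. All but Hnrnph2, at 0.41, and Hnrnpul2, at 0.03, had a change between 0.53 and 1.10.

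Hnrnph3, which binds G-rich RNA, had levels of 1.36, 1.31, 1.39 and 1.28 without RA and 0.10, 0.31, 0.25 and 0.27 with RA. The groups were far apart beside the spread within them, and the change was 1.10 (SE 0.08, limma adjusted p = 0.000184). Hnrnpa3, of the A/B family that represses exons and carries mRNA, had 7.19, 7.39, 7.49 and 7.36 in RA (-) spheres and 6.18, 6.39, 6.28 and 6.40 in RA (+) spheres. Its groups were also separate, and the change was 1.04 (SE 0.08, adjusted p = 0.000197). The 7 tested probes of this gene gave changes from 0.82 to 1.15, all in the same direction.

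Hnrnpf, a paralogue of Hnrnph3 that binds G tracts, read 5.38, 5.69, 5.60 and 5.54 without RA against 4.47, 4.60, 4.60 and 4.60 with RA, a change of 0.98 (SE 0.07, adjusted p = 0.000189). Hnrnpdl, a relative of the AU-rich element binding protein Hnrnpd, stood at 5.63, 5.96, 6.04 and 5.84 without RA and 4.79, 5.07, 5.01 and 5.09 with RA, a change of 0.88 (SE 0.08, adjusted p = 0.000343). For both genes the lowest array of each medium was replicate 1, and no RA (-) array fell among the RA (+) arrays.

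The better known members of the family lay in the middle of the range. Hnrnpa1, a repressor of exon inclusion, rose by 0.86, and its partner Hnrnpa2b1 by 0.64. Hnrnpm rose by 0.78, Hnrnpc, which coats uridine-rich introns, by 0.76, Hnrnph1 by 0.74 and Hnrnpu, a nuclear scaffold protein, by 0.70. Hnrnpab and Hnrnpa0 had changes of 0.67 each, Hnrnpl, which binds CA repeats, and Hnrnpk, which binds C-rich RNA, 0.65 each, and Hnrnpd 0.58. The increase of Hnrnpab did not pass after quantile normalization, where its change was 0.26.

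Changes of 0.57 for Hnrnpr, 0.56 for Hnrnpul1, 0.53 for Hnrnpll, which controls splicing of a leukocyte surface receptor, and 0.41 for Hnrnph2 were also called. Hnrnpul2, a relative of Hnrnpu, was not called, with 2.24, 1.74, 1.59 and 1.65 without RA and 2.06, 1.71, 1.69 and 1.67 with RA. Replicate 1 was highest in both media, the groups overlapped, and the change was 0.03 (95% interval −0.17 to 0.22). It was −0.03 without replicate 1 and −0.07 after quantile normalization, so its direction is not settled.

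The replicate number moved with the levels of many of these genes. RA (-) replicate 1 was the lowest RA (-) array for 31 of the 53 genes and RA (+) replicate 1 the lowest RA (+) array for 25. Pair 3 gave the largest signed difference, RA (-) minus RA (+), for 31 of the 53. That count includes Srsf12, whose decrease was smallest in pair 3. In pairs 1 to 4, 52, 51, 49 and 51 of the 53 were higher without RA. None of these counts was made over all tested genes, so they cannot be read as particular to this set. On the first principal component of all tested genes, which held 81.7% of the variance, RA (-) replicate 1 lay at 42.3 and the other RA (-) arrays at 59.5 to 66.2. Without replicate 1, 48 of the 53 genes were again called higher, where 32.7% of all genes were.

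Where a gene had several tested probes, as 25 of the 53 did, they agreed in sign and none differed by more than 1 on the log2 scale. The widest range was that of Srsf10, whose probes gave 0.64 to 1.16, followed by Srsf7 (0.84 to 1.19) and Srsf6 (0.35 to 0.69). The highest of the Srsf10 values came from the probe assigned to another RefSeq transcript of the gene. Several of these families hold close paralogues or processed pseudogenes, and binding of a probe to their transcripts was not tested.

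Genes of 6 further lists of the splicing machinery had smaller median changes than the snRNP proteins, and are read against the 36.1% of all tested genes called higher. Of 42 further core spliceosome genes 35 were called higher and none lower, with a median change of 0.55. The ring of Lsm proteins on U6 RNA supplied the largest of these, with a 2.84-fold increase of Lsm3 (SE 0.09 on the log2 scale, limma adjusted p = 0.00012) and changes of 1.34 for Lsm5 (SE 0.10) and 1.25 for Lsm2 (SE 0.08). Lsm2 averaged 5.21 ± 0.07 in RA (-) spheres and 3.95 ± 0.10 in RA (+) spheres (SD, n = 4 each).

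The genes that assemble the Sm ring gave 14 higher and none lower of 18, with a median of 0.53. Among them, Gemin8 and Gemin6, subunits of the SMN complex that loads Sm proteins onto RNA, rose by 1.72 (SE 0.08, adjusted p = 7.112e-05) and 1.61 (SE 0.10), and Ddx20, the helicase of that complex, by 1.12 (SE 0.11). Gemin8 averaged 0.07 ± 0.20 without RA and −1.65 ± 0.15 with RA. Of 9 genes of the minor spliceosome, which removes a rare class of introns, 5 were higher and 1 was lower, with a median of 0.36. Its particle proteins Snrnp25, Snrnp35 and Snrnp48 rose by 1.24, 1.11 and 0.72, while Zrsr1, an imprinted relative of U2af1, had a change of −0.96 (SE 0.08, adjusted p = 0.000246).

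The 34 other splicing regulators were more mixed, with 25 higher, 3 lower and a median of 0.46. Khdrbs3, which binds UA-rich RNA, rose by 1.51 (SE 0.07), Ptbp1, a repressor of neuronal exons outside neurons, by 1.25 (SE 0.07, adjusted p = 0.000104), and Mbnl3, of the muscleblind family, by 1.19 (SE 0.16). The 3 lower ones were Mbnl2, with a change of −0.95 (SE 0.09), Esrp1, an epithelial splicing regulator, with −0.74 (SE 0.10), and Srrm4, the activator of neuronal microexons, with −0.44 (SE 0.15, adjusted p = 0.0464). The call of Srrm4 was lost with spike-in scaling, without a filter on dim probes and without replicate 1, 2 or 3, when its change was −0.51, −0.41 and −0.27, and that of Esrp1 with spike-in scaling. Ptbp1 averaged 3.39 ± 0.08 in RA (-) spheres and 2.14 ± 0.01 in RA (+) spheres, and Srrm4 2.61 ± 0.30 and 3.05 ± 0.11.

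Of the further lists, the kinases that phosphorylate SR proteins had the smallest median change. Of these 8 genes 4 were higher, with a median of 0.23, where 36.1% of all tested genes were higher. With spike-in scaling 1 of the 8 was higher, where 18.1% of all genes were. Srpk3, which was well above background on 3 of the 4 RA (+) arrays, rose by 1.35 (SE 0.27), Prpf4b by 0.42 (SE 0.11) and Srpk1, the main cytoplasmic kinase of SR proteins, by 0.37 (SE 0.08). With spike-in scaling Prpf4b (adjusted p = 0.161) and Srpk1 (0.21) did not pass, nor did Prpf4b without replicate 2 (change 0.32, 0.0636) or 3 (change 0.39, 0.0597). Of 9 genes of the exon junction complex, which marks spliced junctions, 6 were higher and the median was 0.45. Its core proteins Magohb, Rbm8a and Eif4a3 rose by 1.32 (SE 0.07), 0.79 (SE 0.07) and 0.70 (SE 0.08). Differences between these lists were not tested, and the number of calls in them depends on the scaling.

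**Figure D4:**
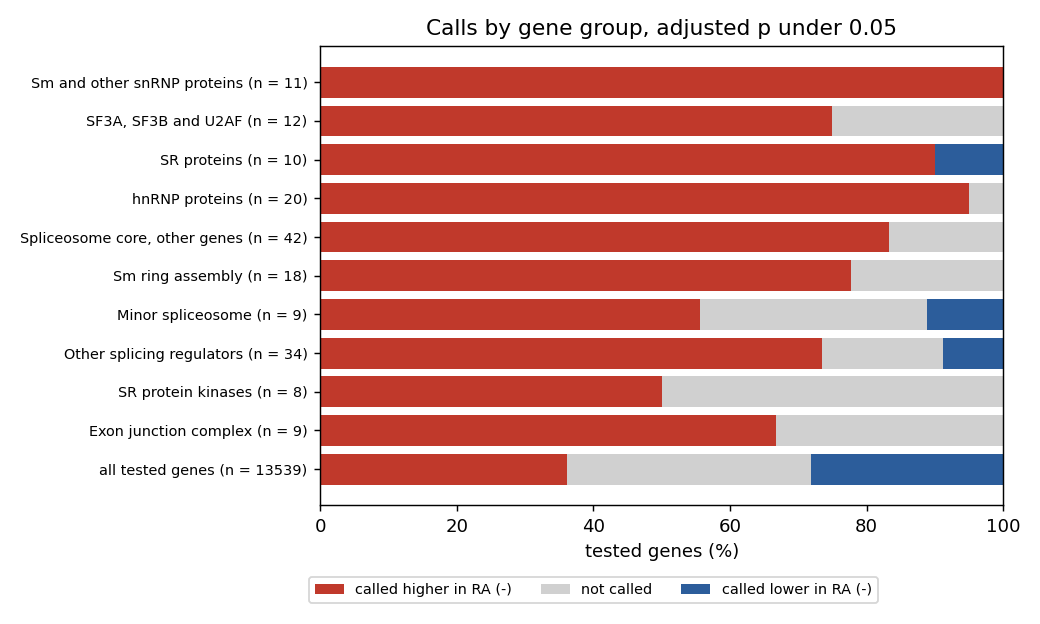
Percent of tested genes called higher in RA (-), not called, and called lower in RA (-) at an adjusted p under 0.05, for the 4 role groups, 6 further splicing lists and all 13539 tested genes. All 11 snRNP genes were called higher, against 36.1% of all tested genes.

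Spike-in scaling moved the median of all tested genes to 0.18, against 0.07 with the 75th percentile, and the median of the 53 genes to 0.82, against 0.70. Both scalings subtract 1 value per array from all genes, so the 53 genes stood 0.63 above the median of all genes in both by construction. After quantile normalization, which is not bound in this way, they stood 0.54 higher and after normexp with quantile normalization 0.52 higher. With spike-in scaling 38 of the 53 were called higher, where 18.1% of all genes were, and 10 genes called with the 75th percentile did not pass: Hnrnpd, Hnrnph2, Hnrnpll, Hnrnpr, Hnrnpul1, Sf3b3, Srsf4, Srsf5, Srsf6 and U2af1l4. The snRNP genes, U2af1, Srsf7, Srsf12 and Hnrnpa3 were called in the same direction under all scalings.

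**Figure D5:**
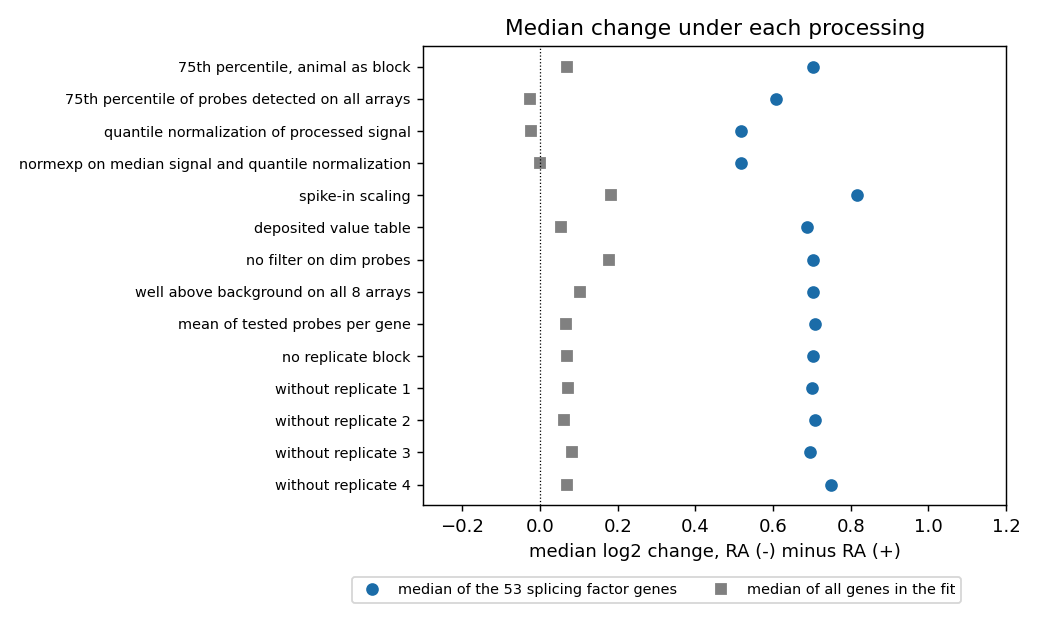
Median log2 change, RA (-) minus RA (+), of the 53 splicing factor genes (circles) and of all genes in the fit (squares) under each processing and with each replicate left out. The medians of the 53 genes run from 0.52 to 0.82 and those of all genes from −0.03 to 0.18.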

How the data were processed

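Per the file headers, the authors scanned 8 1-colour Agilent arrays of design 028005 (annotation on mm9) on 1 slide in 1 scan and extracted each spot's processed intensity, background-subtracted and not scaled between arrays, with Agilent Feature Extraction 11.5.1.1. Per the labels' protocols, each labelling took 40 or 200 ng of RNA (integrity number over 8), without saying which array got which. A deposited table holds log2 values, centred per probe, and its columns correlated at 0.9999 or more with the scanner values. The table's exact scaling is unknown.

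Processed intensities were taken to log2 minus the array's 75th percentile over non-control probes. Spots marked as outliers were dropped, and 64 probes lost a value on some array and were not tested. Probes were named by accession through a RefSeq table of GRCm38.p6, where 27235 probes matched 1 symbol and 28446 none. A probe was tested if at least 4 arrays showed it well above background, with 1 probe per gene by the highest mean level. The fit was limma 3.58.1 in R 4.3.3, two-sided, with the replicate as a block. The pairing is from the series' description of each ganglion being split. Deviations from the medium's mean correlated at 0.52, 0.30, 0.19 and 0.33 within pairs 1 to 4, each highest with its own partner. The fit was tested on simulated data. Alternatives covered scaling, background correction, filters, probe choice, the block and each replicate. Normexp used the median spot signal, since the files hold no mean signal.

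Levels in each sample are given for up to 4 called genes per role with the largest increase and up to 3 with the largest decrease, and further lists name up to 3 called genes in each direction. The promoters shown and the genes named in other sentences were picked with values known. Promoters on chromosome 18, such as that of Snrpd1, were not used. Snrpb, Sf3b4, Sf3b5, U2af2, Hnrnpll and Hnrnpul2, which lie on other chromosomes, also had no searched window. The members, lists and tests were chosen with earlier results of these data known.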

Additional observations from a re-analysis of the deposited data

Results flagged for a closer look

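In 7 of 106 groups of 4 arrays, 1 array stood apart from the other 3 by a gap larger than Dixon's 95% critical share of the group's range, which chance gives in about 1 of 20 groups. In RA (-) spheres, Sf3a3 stood at 5.40 in replicate 1, below 5.89 to 5.98 in the other replicates. Srsf6 read 2.73 in RA (-) replicate 2, above 2.58 to 2.59. U2af2 read 0.68 in RA (-) replicate 3, below 1.23 to 1.32, which is the array that overlapped the RA (+) group.

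In RA (+) spheres, 3 of the 4 values came from replicate 1. Hnrnpf read 4.47 there, beside 4.60 in the other replicates, a small gap that stands out because these were nearly equal. Hnrnpul2 had 2.06, above 1.67 to 1.71, and Snrpc 3.85, below 4.21 to 4.26. U2af1l4 read 3.60 in RA (+) replicate 3, above 3.50 to 3.52.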

How the results depend on the processing

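The number of arrays limits these results, and the counts below rest on 4 pairs. Without the replicate block 48 of the 53 genes were called higher and 1 lower, as with it, no call among the 53 changed, and 4462 genes were higher and 3560 lower in all, beside 4885 and 3820 with the block. Leaving out 1 replicate at a time, 46 to 48 of the 53 were called higher, 36 to 39 at 1.5-fold or more, and the median was 0.69 to 0.75. The shares of all genes called higher were then 30.1% to 34.4%, and 17.6% to 19.5% at 1.5-fold or more. Other scalings were the 75th percentile of probes detected on all arrays, quantile normalization, normexp with quantile normalization and spike-in scaling. In that order, 47, 45, 47 and 38 of the 53 were called higher, where 30.3%, 29.2%, 31.1% and 18.1% of all genes were. The medians were 0.61, 0.52, 0.52 and 0.82, and 1 of the 53 was lower in each. At 1.5-fold the counts in the same order were 28, 21, 19 and 38, against 14.5%, 14.4%, 10.2% and 18.1% of all genes. Spike-in scaling called 2446 genes higher and 1811 lower in all.

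In the other lists, spike-in scaling called 18 core spliceosome, 8 Sm ring assembly, 14 regulator, 1 kinase and 3 exon junction genes higher, and 1 regulator lower. That scaling called 18.1% of all genes higher. Lower calls were 1 core and 1 exon junction gene with the detected-probe percentile. After quantile normalization they were 2 core, 2 minor spliceosome, 5 regulator, 1 kinase and 1 exon junction gene, and after normexp 2, 2, 5, 2 and 1. Over all 13539 genes, 4493 were called lower with the detected-probe percentile, 4463 after quantile normalization and 4375 after normexp. The direction of 3 uncalled genes turned: Hnrnpul2 was −0.0697 with the detected-probe percentile, −0.0680 after quantile normalization, −0.0167 after normexp and −0.0296 to 0.0653 with 1 replicate left out (lowest without replicate 1), Sf3a2 was −0.0291 and −0.0066 after quantile normalization and normexp, and Sf3b4 −0.0216 and −0.0121. Mycn passed after quantile normalization (−0.32) and normexp (−0.29). The cause of these differences was not tested. The deposited log2 values, the mean over probes and a filter on all 8 arrays changed no call among the 53, and no filter lost the call of Srsf5.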
